A study of Mus musculus with 12 samples.

Results

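The comparison described here is WT-Nut3 against WT-Veh, the effect of a past Nutlin-3 treatment on the hippocampal transcriptome of mice with an intact *Fmr1* gene. It uses 6 of the 12 libraries of the series, chosen by the genotype and treatment in the sample labels. WT-Nut3 (libraries RH1, RH9 and RH14) came from wild type mice given 5 intraperitoneal injections of Nutlin-3 at 10 mg/kg, and WT-Veh (RH2, RH5 and RH15) from wild type mice given vehicle. According to the methods, the drug was dissolved in dimethyl sulfoxide and injected every other day, and the mice had a background written as C57B/L6. All were 2 months old at the first injection and 6 months old when the hippocampus was taken, so the libraries describe tissue long after the last dose. The methods describe a Nestin-GFP cross for part of the study, and the labels do not say whether these mice carried it. KO-Nut3 and KO-Veh, the same 2 treatments in *Fmr1* knockout mice with 3 libraries each, share no library with this comparison and are given beside it.

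MDM2 is a ubiquitin ligase that binds the transcription factor p53, blocks its activity and marks it for degradation. Nutlin-3 sits in the p53-binding pocket of MDM2, so in cells exposed to it p53 accumulates and its target genes are transcribed, *Mdm2* itself among them. In the adult dentate gyrus, MDM2 is studied for its part in the activation of neural stem cells, and the loss of *Fmr1*, which encodes an RNA-binding translational regulator, is the genetic cause of fragile X syndrome.

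p53 binds a response element of 2 abutting decamers, each with a core of the form CNNG. Such an element, in the promoter or elsewhere in a target gene, can link MDM2 inhibition to that gene's transcript. Of the 48 p53 target genes listed for this work, 38 had a promoter window in the RefSeq table (250 bases before to 50 bases after a start site, GRCm38.p6). Windows were searched for the 20-base p53 response element consensus, which reads the same on both strands, with both cores required and no spacer. The best matches, with 1 mismatch each, lay in the windows of 4 target genes. Binding of p53 to them was not measured. They are shown because their genes are listed targets of p53, with the CNNG cores in capitals.
Cdkn1a, chr17:29090928-29090947, plus strand: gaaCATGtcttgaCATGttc
Ccng1, chr11:40755462-40755481, minus strand: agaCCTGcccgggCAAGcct
Gtse1, chr15:85859945-85859964, plus strand: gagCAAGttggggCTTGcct
Rps27l, chr9:66946296-66946315, plus strand: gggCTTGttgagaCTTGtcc

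A match with at most 1 mismatch was present for 10.5% of the 38 target genes and 0.0814% of all 27025 gene symbols in the table, and a match with at most 3 mismatches for 23.7% and 1.63%. The list was written from knowledge of p53 targets, so the excess describes the list and not these libraries. A match in such a window is a description of its letters. Matches with 3 mismatches lay in the windows of *Abcb1b*, *Aen*, *Bbc3*, *Sesn1* and *Tigar*. The remaining target genes, *Mdm2* included, had no such match or no window, which says nothing about p53 binding elsewhere in those genes.

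Each library held between 17150820 and 20040482 reads counted on genes. Levels are given as CPM, which are counts scaled by library size and a TMM factor. At this depth the 3 counts taken as the floor correspond to 0.149 to 0.179 CPM. A gene was tested when its counts summed to over 20 across the 12 libraries, which left 22592, with the quasi-likelihood test of edgeR, and adjusted *P*-values are Benjamini-Hochberg values over all of them. The *P*-values and intervals rest on the spread among 3 libraries a group, moderated across genes. They do not measure the spread of each gene alone. *Fmr1* checked the genotype labels, at 74.0 to 79.5 CPM in the 6 WT libraries against 28.5 to 37.3 CPM in the 6 KO libraries. Hippocampal identity was checked with granule and pyramidal cell markers. Both were present throughout. *Prox1*, the dentate granule cell factor, was at 102 to 137 CPM and *Neurod6*, a pyramidal neuron factor, at 149 to 186 CPM in the WT libraries. There were 3 libraries that stood apart on some genes, WT-Nut3 RH9 on choroid plexus genes, WT-Veh RH5 on fibroblast genes and WT-Veh RH15 on a set of secretory genes. For the choroid plexus, fibroblast and several other gene lists, counts or medians are given with and without single libraries. Single genes depended on single libraries too. Of 80 named genes refitted without each WT library in turn, 54 had a log2 fold change that moved by over 1.5 times or changed sign in at least 1 fit, and 17 changed sign.

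No gene passed an adjusted *P*-value of 0.05 between WT-Nut3 and WT-Veh (0% of those tested), and the smallest adjusted *P*-value of edgeR was 0.998. At an unadjusted *P*-value under 0.05 there were 717 genes, 3.17% of those tested, of which 415 (1.84%) were higher and 302 (1.34%) lower in WT-Nut3. DESeq2 and limma-voom gave 0 adjusted calls as well, with 340 and 580 genes at the unadjusted threshold. All 3 WT-Nut3 libraries lay above all 3 WT-Veh libraries for 814 genes (3.6%) and below them for 886 genes (3.92%). The fold changes were centred, with 11313 genes higher and 11272 lower, their median was 0.00 on the log2 scale and the interquartile range was -0.10 to 0.11. Library pairs from different groups and pairs within a group had overlapping ranges of distance. The median absolute log2 difference over genes was 0.106 to 0.145 between groups, 0.118 to 0.139 within WT-Nut3 and 0.123 to 0.142 within WT-Veh. By library number it was 0.106 to 0.124 among RH1, RH2 and RH5 and 0.106 to 0.119 among RH9, RH14 and RH15. Pairs across these sets were at 0.122 to 0.145. WT-Nut3 held RH9 and RH14 of the later set and WT-Veh held RH15, so number and treatment were partly confounded. The root mean square difference was 0.413 to 0.479 for pairs with RH9 and 0.286 to 0.406 for the rest. The cause was not tested.

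The reach of the comparison depended on expression. Among the 7863 genes with a mean of 10 to 100 CPM, 99.5% had a 95% interval that lay within a 2-fold change in either direction, and 97.2% one within a 1.5-fold change. The corresponding shares were 99.8% and 99.5% of the 2384 genes at 100 CPM and above, but 82% and 35.6% of the 5083 genes at 1 to 10 CPM. Of the 7255 genes below 1 CPM, 4.55% had an interval within 2-fold. The median half-width of the 95% interval, on the log2 scale, was 0.131 at 100 CPM and above, 0.195 at 10 to 100 CPM, 0.516 at 1 to 10 CPM and 1.54 below 1 CPM.

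**Figure D1:**
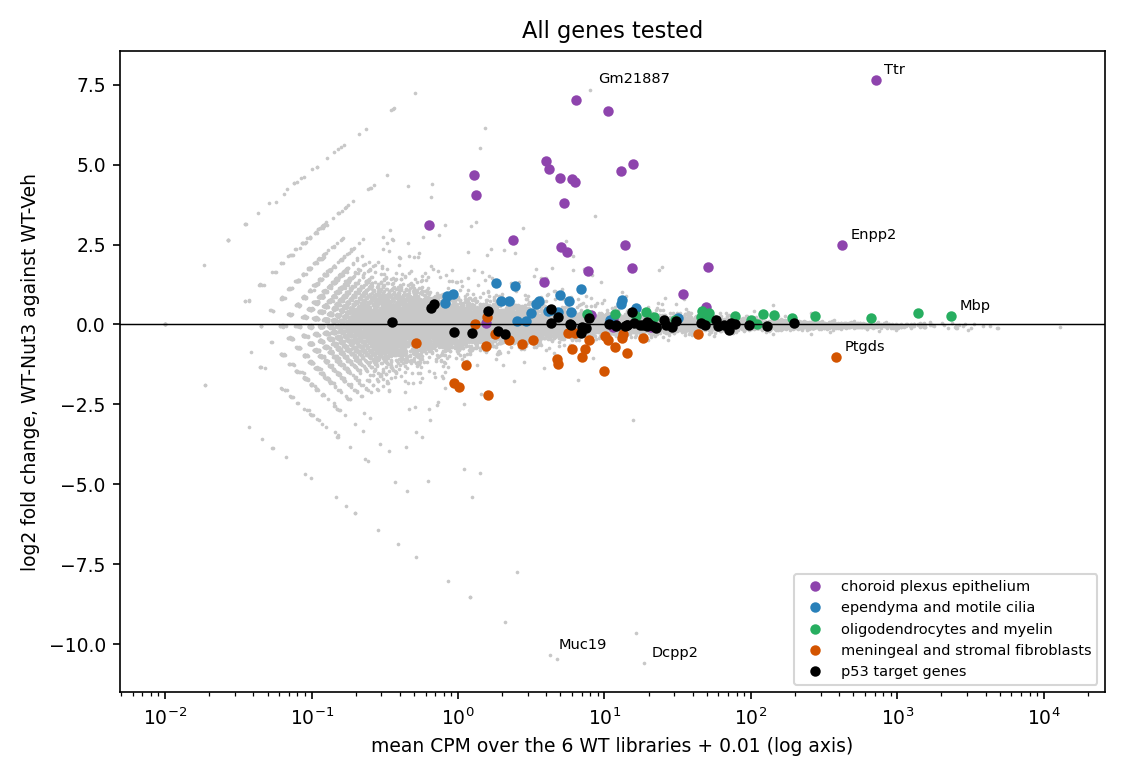
Log2 fold change of WT-Nut3 against WT-Veh (vertical axis) against mean CPM over the 6 WT libraries (horizontal axis, log scale) for the genes tested, with 5 gene lists in colour and 7 genes named. The p53 target genes (black) lie along 0, the coloured points far above 0 are choroid plexus genes high in RH9, and *Dcpp2* and *Muc19*, far below, are genes present in RH15. Grey points that fan out at the left are genes of few reads.

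*Mdm2*, the gene of the protein that Nutlin-3 binds, was at 55.2, 65.6 and 61.2 CPM in WT-Nut3 RH1, RH9 and RH14 and at 52.4, 54.7 and 57.9 CPM in WT-Veh RH2, RH5 and RH15. Its log2 fold change was 0.14 (95% interval -0.02 to 0.31), the smallest *P*-value of the 22 p53 core regulators, and the groups overlapped because RH1 lay below RH15. *Trp53*, which encodes p53, was at 25.2, 24.8 and 25.7 CPM against 24.8, 23.2 and 23.3 CPM. The lowest WT-Nut3 library and the highest WT-Veh library were level to 3 digits, and the log2 fold change was 0.09 (-0.09 to 0.26). *Mdm4*, the relative of *Mdm2* that also restrains p53, was at 135, 140 and 143 CPM against 128, 135 and 138 CPM, a log2 fold change of 0.06 (-0.05 to 0.18).

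*Usp7*, a deubiquitinase that acts on MDM2 and p53 and the most abundant gene of this list, had means of 184 CPM in both groups, with SDs of 5.15 CPM in WT-Nut3 and 6.81 CPM in WT-Veh (n = 3 each). *Hdac1*, a deacetylase of p53 and histones, differed by a log2 fold change of 0.09 (-0.06 to 0.24), and *Ep300*, the acetyltransferase that MDM2 and p53 both meet, by 0.03 (-0.11 to 0.16). Of the 22 core regulators, 15 were higher and 7 lower, none of them at an unadjusted *P*-value under 0.05. Their log2 fold changes ran from -0.27 to 1.71. For 1 of the 22 every WT-Nut3 library lay above every WT-Veh library, beside 3.6% of all genes tested. The median log2 fold change of the 22 was 0.04 beside 0.00 over all genes tested, and -0.01 between KO-Nut3 and KO-Veh. The interval of 19 of the 22 lay within 2-fold. The other 3 were *Cdkn2a*, *Trp73* and *Trp63*, with WT-Nut3 means of 0.195, 5.74 and 1.96 CPM. *Cdkn2a*, which encodes the MDM2 inhibitor ARF, was at or under the floor of 3 counts in every WT-Veh library.

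*Cdkn1a*, which encodes the cell cycle inhibitor p21 and carries the first element printed above, was at 4.62, 6.71 and 6.28 CPM in WT-Nut3 and at 4.24, 4.41 and 9.06 CPM in WT-Veh. WT-Veh RH15 was the highest library, and the log2 fold change was -0.01 (-0.64 to 0.62). Without that library it was 0.44. *Ccng1*, encoding cyclin G1, was at 74.96, 72.1 and 76.8 CPM against 68.0, 68.8 and 78.2 CPM, again with RH15 highest and a log2 fold change of 0.06 (-0.09 to 0.21). *Rps27l*, a ribosomal protein S27 relative, had 6.90, 10.1 and 8.30 CPM against 6.93, 6.04 and 8.81 CPM, a log2 fold change of 0.22 (-0.20 to 0.63) that was 0.07 without WT-Nut3 RH9 and 0.38 without RH15. *Gtse1*, whose product shuttles p53 in cycling cells, was at 0.913, 0.994 and 0.336 CPM against 0.776, 0.683 and 0.154 CPM. Its interval of -0.75 to 1.75 spanned a change in either direction. The log2 fold change of 0.50 was 0.05 without RH15, 0.84 without WT-Veh RH2 and 0.83 without WT-Nut3 RH14. The groups overlapped for all 4 genes with a 1-mismatch element.

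Among the 48 p53 target genes, 21 were higher and 27 lower, with a median log2 fold change of -0.01 and values from -0.29 to 0.65. At an unadjusted *P*-value under 0.05, 1 was higher and 1 lower, beside 1.84% and 1.34% of all genes tested. *Phlda3*, an inhibitor of AKT signalling, was the member with the smallest *P*-value, at 18.6, 16.8 and 17.2 CPM in WT-Nut3 and 11.9, 13.9 and 14.5 CPM in WT-Veh. All WT-Nut3 libraries were higher, the log2 fold change was 0.38 (0.14 to 0.63), and in the knockout it was 0.31. *Eda2r*, a receptor of the tumour necrosis factor family, was the other target gene with separate groups, at 0.659, 0.745 and 1.06 CPM against 0.418, 0.525 and 0.618 CPM. The 2 of 48 with every WT-Nut3 library higher stand beside 3.6% of all genes, and none of the 48 had every WT-Nut3 library lower. *Trp53i11* was the member that was lower at this threshold, with a log2 fold change of -0.18 (-0.34 to -0.02) and overlapping groups.

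The most abundant target gene, *Plk2*, a kinase with a role at synapses, had a mean of 199 ± 8.25 CPM in treated and 195 ± 6.87 CPM in vehicle libraries (SD, n = 3 per group), which differed by 0.03 on the log2 scale (-0.09 to 0.15). For 43 of the 48 target genes the upper end of the 95% interval was under a 2-fold increase, and for 38 it was under a 1.5-fold increase. *Bax*, *Bbc3* and *Apaf1*, apoptosis genes picked as examples and not the only ones of the list, were within this group. Their log2 fold changes were -0.02, -0.03 and -0.00, while the largest value of the list, 0.65, was that of *Eda2r*. The list's median was 0.01 between KO-Nut3 and KO-Veh. Leaving out WT-Veh RH15 moved the WT median to 0.05, with 32 of the 48 higher, and leaving out any other library gave medians of -0.03 to 0.02.

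**Figure D2:**
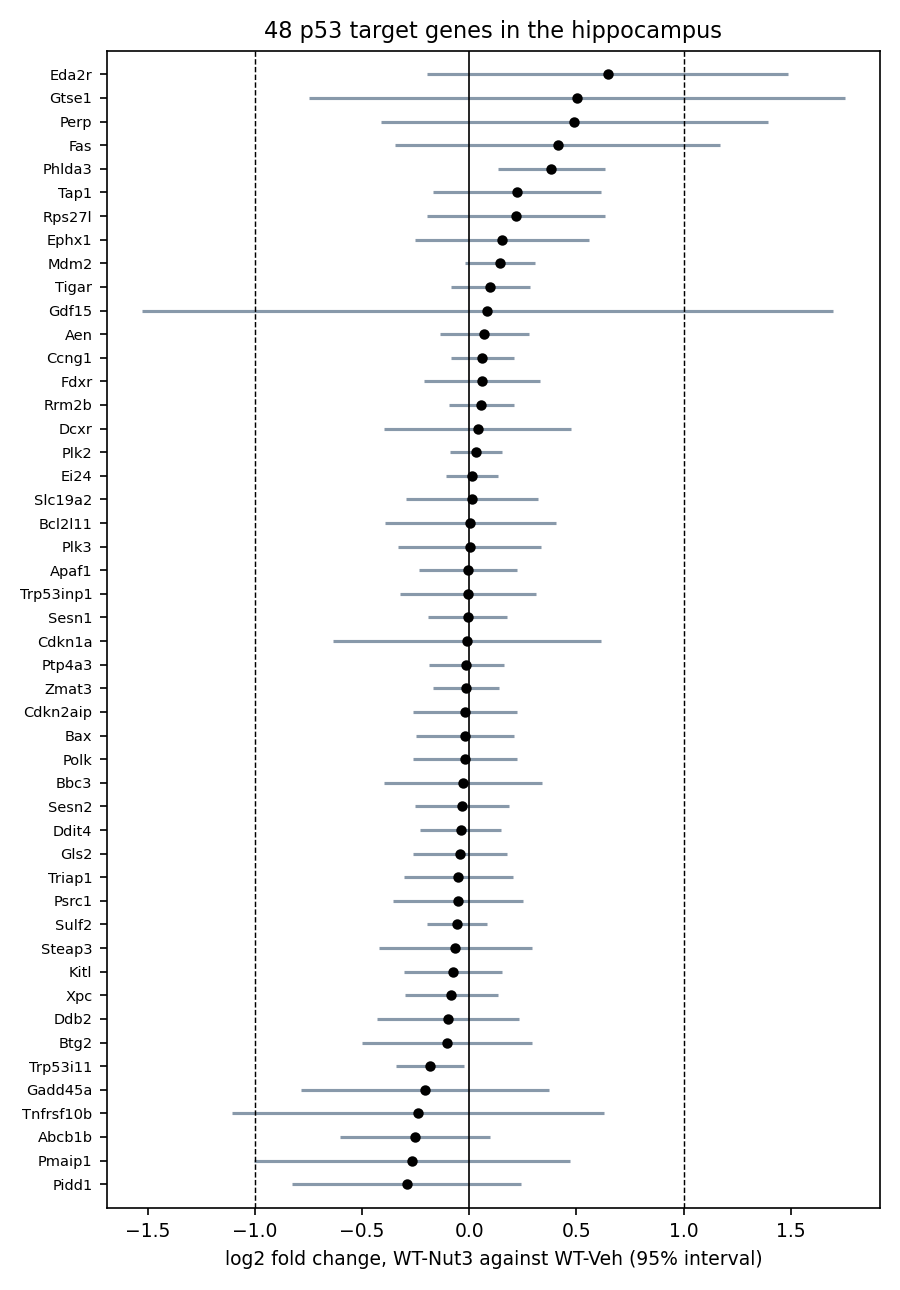
Log2 fold change of WT-Nut3 against WT-Veh with its 95% interval for each of the 48 p53 target genes, ordered by size, with dashed lines at a 2-fold change. All points lie between -0.29 and 0.65, and the intervals of *Phlda3* and *Trp53i11* are the 2 that do not reach 0.

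Transcripts of the neurogenic lineage, read here in bulk hippocampus, had medians near 0. Some of these genes are also transcribed in other cells, as *Gfap* is in astrocytes, so the medians do not measure neurogenesis. Of 18 genes of adult neural stem and progenitor cells, 9 were higher and 9 lower with a median log2 fold change of -0.00, and none had an unadjusted *P*-value under 0.05. The median of the 18 genes was 0.06 without WT-Nut3 RH9, and also with the choroid plexus level as a term. *Gfap*, the intermediate filament of radial glia and astrocytes and the most abundant of them, was at 417, 346 and 373 CPM in WT-Nut3 and 350, 374 and 358 CPM in WT-Veh. The groups overlapped for *Gfap* and for all 18.

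The 24 proliferation genes, most of them at low levels in adult hippocampus, had a median of -0.02, with 11 higher and 13 lower. Here 2 subunits of the replicative helicase stood on opposite sides. *Mcm3* was higher, at 2.79, 3.88 and 3.42 CPM against 2.39, 2.47 and 2.16 CPM with a log2 fold change of 0.53 (0.06 to 0.99). *Mcm2* was lower, with group means of 4.66 and 6.06 CPM and a log2 fold change of -0.37. Neither passed the adjusted test. The groups were separate for both and for *Mcm7*, of the same complex (-0.12, -0.37 to 0.13), so that 1 of 24 was higher in every WT-Nut3 library beside 3.6% of all genes and 2 were lower beside 3.92%. *Ccnd2*, encoding cyclin D2 and the most abundant of these genes, differed by -0.06 (-0.21 to 0.08).

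Among 20 genes of neuroblasts and immature neurons, 9 were higher and 11 lower, with a median of -0.01. *Dcx*, the doublecortin gene that marks neuroblasts, had group means of 25.7 and 29.8 CPM, a log2 fold change of -0.21 that was -0.08 without WT-Nut3 RH9 and -0.12 without WT-Veh RH15. *Sox4*, a factor of neuronal differentiation, was the member with the smallest *P*-value, at 29.7, 28.7 and 28.9 CPM in WT-Nut3 and 24.96, 26.1 and 25.8 CPM in WT-Veh, and all WT-Nut3 libraries were higher (log2 fold change 0.19, 0.02 to 0.35). In the knockout its log2 fold change was -0.12. *Neurod2*, the most abundant member, was level at 194 to 221 CPM against 196 to 235 CPM.

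Enzymes that add or remove histone acetyl groups, the class to which p300 and HDAC1 belong, were measured tightly. All 25 enzymes had a 95% interval within a 1.5-fold increase and within 2-fold in either direction. There were 10 higher and 15 lower, the median was -0.02, the range was -0.15 to 0.14, and none had an unadjusted *P*-value under 0.05. The median lay between -0.0247 and 0.00177 when 1 library was left out. *Hdac5*, the most abundant, was at 202, 168 and 179 CPM against 179, 184 and 196 CPM, and *Kat8*, an acetyltransferase of histone H4 and the member with the smallest *P*-value, differed by -0.15 (-0.36 to 0.06).

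Neuronal and glial composition by marker lists was compared next, and in bulk tissue fewer cells of a type and less RNA per cell cannot be told apart. The 19 CA pyramidal, 20 dentate granule and 20 interneuron markers had medians of 0.03, 0.02 and 0.01, and none of the 59 had an unadjusted *P*-value under 0.05. The 18 astrocyte markers had a median of -0.05, and the glutamate transporter gene *Slc1a2* was at 3408, 2748 and 3033 CPM against 3301, 3311 and 3401 CPM. The 22 genes of microglia and macrophages had a median of -0.08. *Csf1r*, the receptor that microglia depend on, was at 87.6, 78.5 and 86.8 CPM against 90.05, 87.9 and 98.0 CPM, so that all WT-Nut3 libraries were lower, by a log2 fold change of -0.12 (-0.26 to 0.02). The 24 immediate early genes, read as a trace of recent neuronal activity, had a median of 0.07 with 17 higher. Without WT-Veh RH2 the median was -0.05 with 11 higher, and without WT-Veh RH15 it was 0.25 with 22 higher. *Arc* ranged from 91.7 CPM in WT-Veh RH2 to 207 CPM in WT-Veh RH15 with the 3 WT-Nut3 libraries between them. *Ier2*, the member with the smallest *P*-value, was at 8.64 to 9.33 CPM against 4.96 to 8.04 CPM. In the knockout none of the 24 was higher, with a median of -0.35.

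Vascular, immune and stress lists followed. The medians were -0.08 for 20 endothelial genes, -0.16 for 14 mural cell genes, -0.02 for 26 interferon and MHC genes and 0.07 for 25 heat shock and unfolded protein response genes. Without WT-Veh RH5, the library with the highest summed mural level (331 CPM beside 231 to 275 CPM), the mural median was 0.05 with 9 of 14 higher, and without WT-Veh RH2 it was -0.31. The endothelial median lay between -0.17 without WT-Veh RH2 and -0.01 without WT-Veh RH15. *Abcb1a*, the efflux transporter of the blood-brain barrier, was the endothelial gene with the smallest *P*-value (log2 fold change -0.34, -0.67 to -0.01), at -0.16 without WT-Veh RH15. *Psmb9*, an immunoproteasome subunit, was lower in every WT-Nut3 library, at 1.27, 0.844 and 1.29 CPM against 1.61, 2.15 and 2.16 CPM. The 13 mitochondrially encoded genes had a median of -0.05, and *mt-Nd6* was at 391, 391 and 397 CPM against 452, 416 and 443 CPM. The lists of TGF-beta and BMP signalling genes, insulin-like growth factor genes, glutamate receptors and scaffolds, clock genes, thalamic and cortical markers and blood genes had medians between -0.07 and 0.04. Leaving out 1 library moved the median over -0.25 to 0.22 for the blood genes and -0.17 to 0.09 for the interferon and MHC genes. The range was -0.02 to 0.15 for the heat shock genes and -0.02 to 0.07 for the TGF-beta and BMP signalling genes. It was -0.01 to 0.06 for the insulin-like growth factor genes and -0.03 to 0.10 for the clock genes. For the thalamic, cortical and mitochondrially encoded genes it was -0.02 to 0.07, -0.18 to 0.001 and -0.13 to 0.02. No direction is given for any of these lists. The 28 collagen genes had a median of -0.01 over a range of -0.71 to 2.61, with 3 higher and 4 lower at an unadjusted *P*-value under 0.05, beside 1.84% and 1.34% of all genes. Without RH9 their median was -0.18, with none higher and 3 lower at that threshold, and without RH5 it was 0.04, with none and 1.

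**Figure D3:**
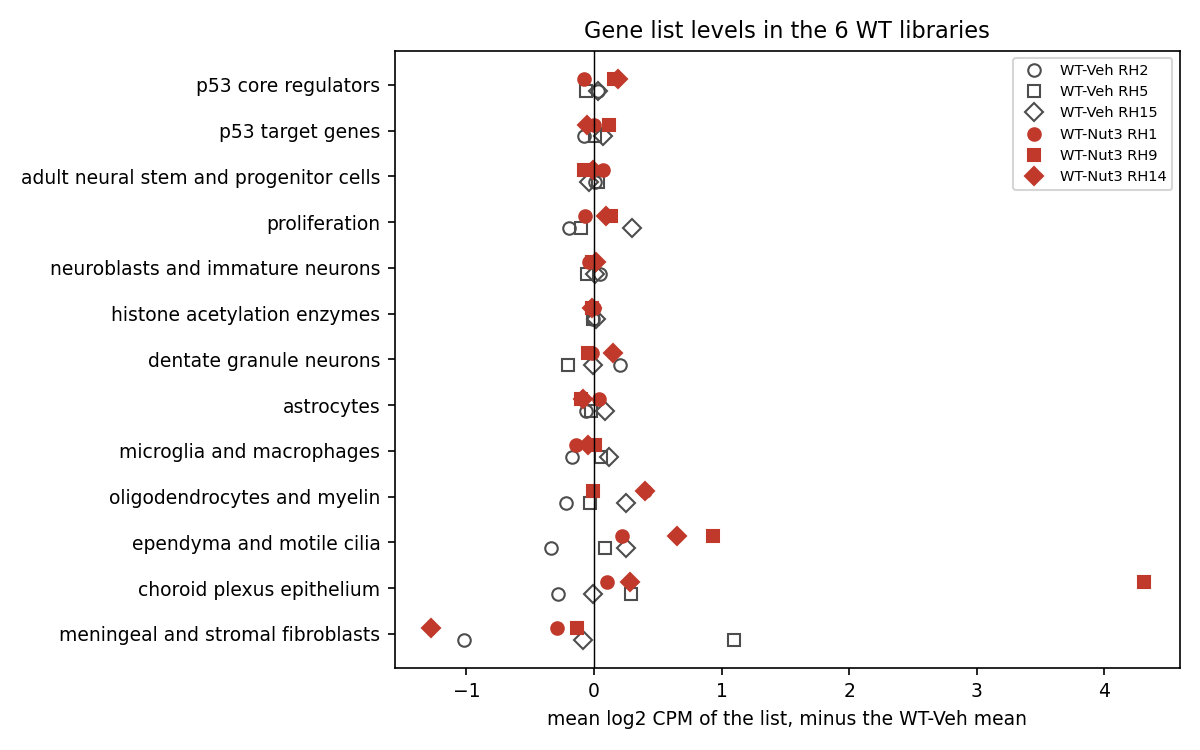
Mean log2 CPM of 13 gene lists in each of the 6 WT libraries, relative to the mean of the 3 WT-Veh libraries, with WT-Nut3 as filled red symbols and WT-Veh as open grey symbols. The upper 9 lists, from p53 core regulators to microglia, have narrower spreads than the choroid plexus and fibroblast lists, which have the widest. On the choroid plexus list WT-Nut3 RH9 lies at 4.31. The fibroblast list runs from -1.28 in WT-Nut3 RH14 and -1.02 in WT-Veh RH2 to 1.10 in WT-Veh RH5.

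Genes of mature oligodendrocytes and myelin were higher in WT-Nut3 without exception in direction. All 20 had a positive log2 fold change, with a median of 0.27 and a range of 0.03 to 0.41, and 7 had an unadjusted *P*-value under 0.05, beside 1.84% of all genes tested. With robust dispersion estimates 1 of the 20 did. *Mbp*, myelin basic protein and the most abundant of them, was at 2752, 2089 and 2774 CPM in RH1, RH9 and RH14 and at 1798, 2059 and 2514 CPM in RH2, RH5 and RH15. Its log2 fold change was 0.26 (-0.03 to 0.55), with RH9 among the vehicle libraries and RH15 among the treated ones. *Ugt8a*, an enzyme of galactosylceramide synthesis, was at 53.7, 41.5 and 63.5 CPM against 37.1, 36.4 and 45.9 CPM (0.41, 0.10 to 0.72), the smallest *P*-value of the list.

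For none of the 20 myelin genes were the groups separate. The lineage factor *Olig1* was at the low end of the list, with a log2 fold change of 0.03. Markers of oligodendrocyte precursors did not follow the mature genes, with 6 of 8 lower and a median of -0.08, which lay between -0.15 without WT-Nut3 RH1 and -0.03 without WT-Veh RH5. *Cspg4*, encoding the NG2 proteoglycan, was at 28.6, 23.7 and 29.4 CPM against 32.7, 33.7 and 31.3 CPM (-0.25, -0.46 to -0.05, and -0.16 without RH9), and *Pdgfra*, the receptor for the precursor mitogen, differed by -0.16. Every WT-Nut3 library was below every WT-Veh library for both, 2 of 8 genes beside 3.92% of all genes tested, although *Cspg5*, the most abundant of the 8, overlapped at -0.07. In the knockout all 20 myelin genes were higher as well, with a median of 0.21, and none of them had an unadjusted interaction *P*-value under 0.05.

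The number of myelin genes at the unadjusted threshold depended on single libraries, while the median stayed positive without any 1 of them. Without WT-Veh RH2, the vehicle library with the lowest myelin level, 18 of 20 were higher with a median of 0.16 and none passed the unadjusted threshold. When WT-Nut3 RH14 was left out the figures were 19, 0.21 and 0, without WT-Nut3 RH1 19, 0.20 and 2, and without WT-Veh RH5 19, 0.26 and 1. Without WT-Nut3 RH9 they were 20, 0.37 and 14, and without WT-Veh RH15 they were 20, 0.39 and 15. Summed over the list, the libraries held 6607, 5196 and 6882 CPM in WT-Nut3 RH1, RH9 and RH14 and 4236, 4964 and 6284 CPM in WT-Veh RH2, RH5 and RH15. The part of dissection in this spread was not tested.

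Genes of ependyma and motile cilia were also higher in WT-Nut3, all 24 of them, with log2 fold changes of 0.10 to 1.28 and a median of 0.66. Of these, 10 had an unadjusted *P*-value under 0.05, beside 1.84% of all genes, and 6 had separate groups, beside 3.6%. With robust dispersion estimates 6 of the 24 passed the unadjusted threshold. *Ak7*, an adenylate kinase of ciliary axonemes, had the smallest *P*-value of the list, at 5.58, 7.10 and 6.90 CPM in WT-Nut3 and 2.69, 4.04 and 3.55 CPM in WT-Veh, a log2 fold change of 0.93 (0.49 to 1.37). *Foxj1*, the factor that switches on the motile cilium programme, was at 10.2, 23.7 and 15.2 CPM against 8.24, 8.67 and 12.3 CPM (0.75, 0.17 to 1.34), and without RH9 its log2 fold change was 0.39. *Dnah9*, an axonemal dynein heavy chain and the most abundant member, was at 29.8, 35.1 and 36.7 CPM against 30.0, 32.2 and 25.3 CPM (0.22, -0.02 to 0.46).

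The cilia genes differed in level among the treated libraries. Summed over the list, WT-Nut3 RH1, RH14 and RH9 held 132, 174 and 215 CPM and WT-Veh RH2, RH5 and RH15 held 106, 128 and 132 CPM. RH1 thus lay level with RH15, and RH9, the library with the high choroid plexus genes described below, lay highest. Without RH9 all 24 stayed higher with a median of 0.37, and 2 had an unadjusted *P*-value under 0.05. With the choroid plexus level as a term in the fit the median was 0.32 and 1 gene passed the unadjusted threshold. In the knockout 22 of 24 were higher, with a median of 0.51, and none had an unadjusted interaction *P*-value under 0.05.

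**Figure D4:**
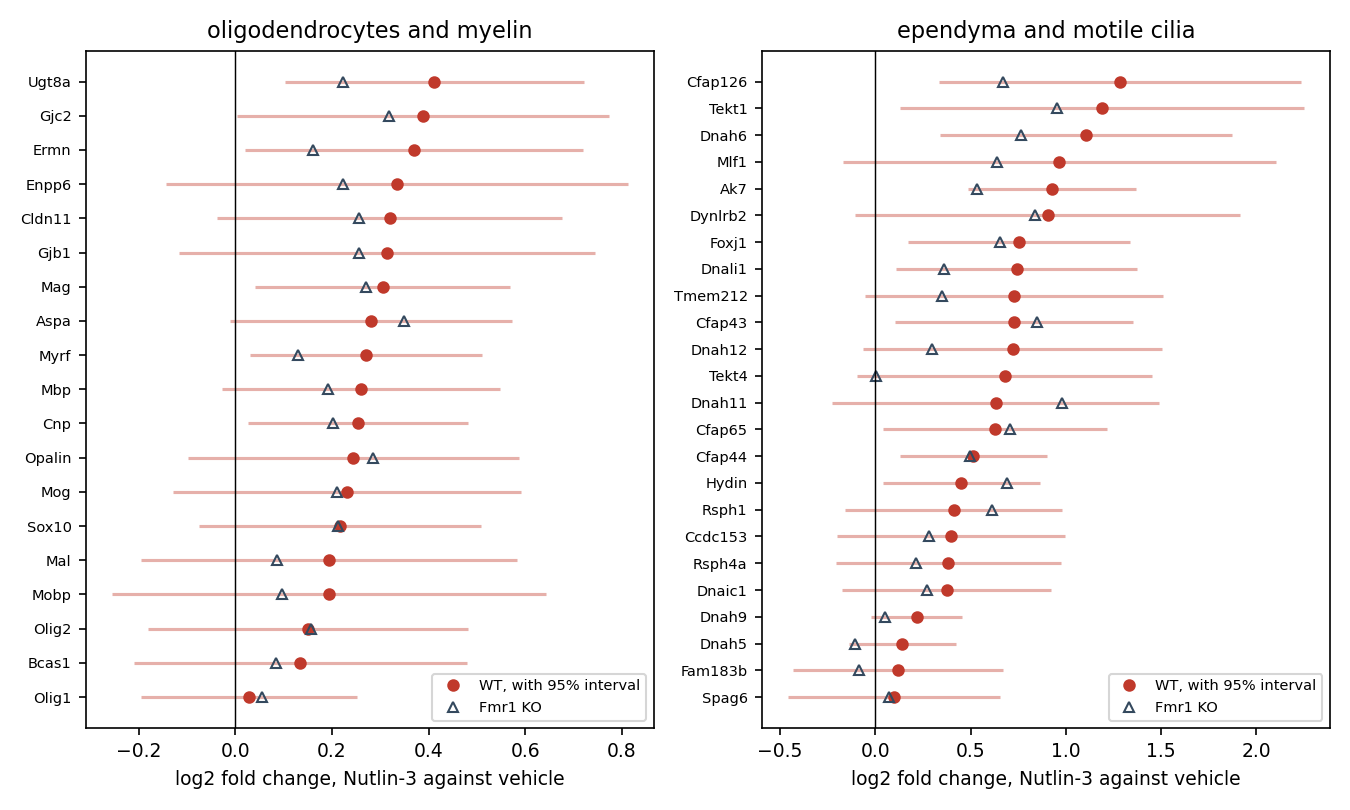
Log2 fold change of Nutlin-3 against vehicle for oligodendrocyte and myelin genes (left, all but 1 of the 20 on the list) and the 24 ependyma and motile cilia genes (right), with WT values as red points with 95% intervals and *Fmr1* knockout values as open triangles. All WT points lie above 0, as do all triangles on the left and 22 on the right, and most WT intervals reach 0.

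Genes of the choroid plexus epithelium, which secretes cerebrospinal fluid, had large positive fold changes that came from 1 library. *Ttr*, encoding the thyroid hormone carrier transthyretin, was at 4215 CPM in WT-Nut3 RH9 beside 12.9 and 18.2 CPM in RH1 and RH14 and 6.39, 9.56 and 5.15 CPM in WT-Veh. *Enpp2*, encoding autotaxin, was at 1820 CPM in RH9 and 113 to 164 CPM in the other 5 libraries. *Tmem72*, a membrane protein gene of this epithelium, was at 62.5 CPM in RH9 and at no more than 0.392 CPM elsewhere. The transcription factor gene *Otx2* (22.4 CPM in RH9, at most 1.23 elsewhere) and the coagulation factor gene *F5* (72.5 CPM, at most 1.29 elsewhere) behaved alike, as did *Folr1*, a folate receptor (32.3 CPM, at most 1.23 elsewhere).

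Of the 30 choroid plexus genes, 28 were higher with a median log2 fold change of 2.58, and 22 had an unadjusted *P*-value under 0.05, beside 1.84% of all genes. With robust dispersion estimates none of the 30 did. The list summed to 7172 CPM in RH9 and to 270 to 341 CPM in the other 5 libraries. Without RH9 the median was 0.09, with 18 of 30 higher and 4 of them at the unadjusted threshold. In the knockout all 30 were higher with a median of 3.31, and the list summed to 5604, 902 and 7668 CPM in KO-Nut3 RH6, RH8 and RH13 and to 275, 282 and 331 CPM in KO-Veh RH7, RH10 and RH16. *Ttr*, *Tmem72*, *Otx2*, *F5*, *Folr1* and *Enpp2* had separate groups, beside 3.6% of all genes, so RH1 and RH14 also lay above WT-Veh for these 6. RH9 was at least 11.1 times the next library for each of them, so their separation turned on RH1 and RH14 alone. The share over all genes is therefore not a like measure for them, and no conclusion is drawn from it. Of the 15330 genes with a mean of at least 1 CPM in these libraries, 49 had at least 4 times the next highest level in RH9, 25 of them at least 10 times, and 21 of the 49 were on the choroid plexus list. The corresponding numbers were 14 for WT-Veh RH15, 1 for WT-Veh RH5 and 0 for the other 3 libraries.

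The 9 genes that the study followed by qPCR had a median log2 fold change of 2.49 with 8 higher. The study chose them, so the count is not independent evidence of a direction, and without RH9 the median was -0.28. It was 0.79 with limma-voom, 0.60 with the filterByExpr filter and -0.32 with the choroid plexus level as a term. *Aqp1*, a water channel of the choroid plexus, was at 27.9 CPM in RH9 and 0.368 to 0.456 CPM elsewhere, and *Col8a1*, a collagen gene, at 26.5 CPM in RH9 and 0.392 to 2.05 CPM elsewhere. *Angptl2*, *Bmp6* and *Igf2*, which encode secreted factors, were highest in RH9 and second highest in WT-Veh RH5. *Angptl2* was at 2.89, 13.9 and 1.85 CPM in WT-Nut3 and at 1.79, 5.83 and 2.01 CPM in WT-Veh, and without RH9 its log2 fold change went from 0.95 to -0.43. For *Bmp6* the values were 0.18 and -0.50, and for *Igf2* 0.24 and -1.14. Without WT-Veh RH5 the log2 fold changes of *Angptl2*, *Bmp6* and *Igf2* were 1.71, 0.80 and 1.65. *Timp3*, a metalloproteinase inhibitor, was at 53.7, 80.2 and 56.0 CPM against 45.7, 77.0 and 77.5 CPM, a log2 fold change of -0.07 (-0.50 to 0.35).

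Genes of meningeal and stromal fibroblasts went the other way, with 28 of 30 lower in WT-Nut3 and a median log2 fold change of -0.61, and 6 had an unadjusted *P*-value under 0.05, beside 1.34% of all genes. WT-Veh RH5 stood apart here. *Ptgds*, encoding prostaglandin D synthase and the most abundant of them, was at 1047 CPM in RH5, 134 and 354 CPM in the other WT-Veh libraries and 252, 346 and 153 CPM in WT-Nut3. *Slc13a3*, a dicarboxylate transporter, was at 29.4 CPM in RH5 and 7.74 to 15.4 CPM elsewhere, and *Slc47a1*, an organic cation exporter, at 6.30 CPM in RH5 and at most 1.39 CPM elsewhere. The list summed to 1463 CPM in RH5 and to 274 to 567 CPM in the other 5 libraries. With robust dispersion estimates none of the 30 passed the unadjusted threshold. Without RH5, 18 of 30 were higher, the median was 0.06 and none had an unadjusted *P*-value under 0.05. In the knockout 29 of 30 were higher in KO-Nut3, with a median of 1.37, and 26 of 30 had an unadjusted interaction *P*-value under 0.05 beside 4.17% of all genes. KO-Nut3 RH8, RH6 and RH13 summed to 2284, 1140 and 540 CPM over the list and the KO-Veh libraries to 415 to 471 CPM, so the level in KO-Nut3 differed by library as well. The count of 26 fell to 16 without WT-Veh RH5.

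A further set of genes was present in WT-Veh RH15 and close to absent elsewhere. *Dcpp2* and *Dcpp3*, demilune cell and parotid protein genes, were at 111 and 98.2 CPM in RH15 and at most 0.101 CPM in the other WT libraries. *Dcpp1* (28.2 CPM), the mucin genes *Muc19* (25.5 CPM) and *Mucl2* (15.1 CPM), the parotid secretory protein gene *Bpifa2* (12.4 CPM), the kallikrein gene *Klk1* (7.16 CPM) and the secretoglobin gene *Scgb2b27* (7.16 CPM) followed, each at no more than 0.0597 CPM in any other WT library. The 3 *Dcpp* genes are near-identical neighbours, so the split of reads among them is uncertain. The same library also had the highest *Lcn2* (6.08 CPM), *Saa3* (8.03 CPM), *A2ml1* (77.6 CPM) and *Thbs1* (24.7 CPM), of which the first and second encode acute phase proteins, and of the blood list *S100a9*, a neutrophil gene, at 3.55 CPM beside at most 0.0525 CPM in the other WT libraries. *Dcpp2* and *Dcpp3* were therefore among the 8 genes with the smallest *P*-values on the lower side, on the reads of 1 library.

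**Figure D5:**
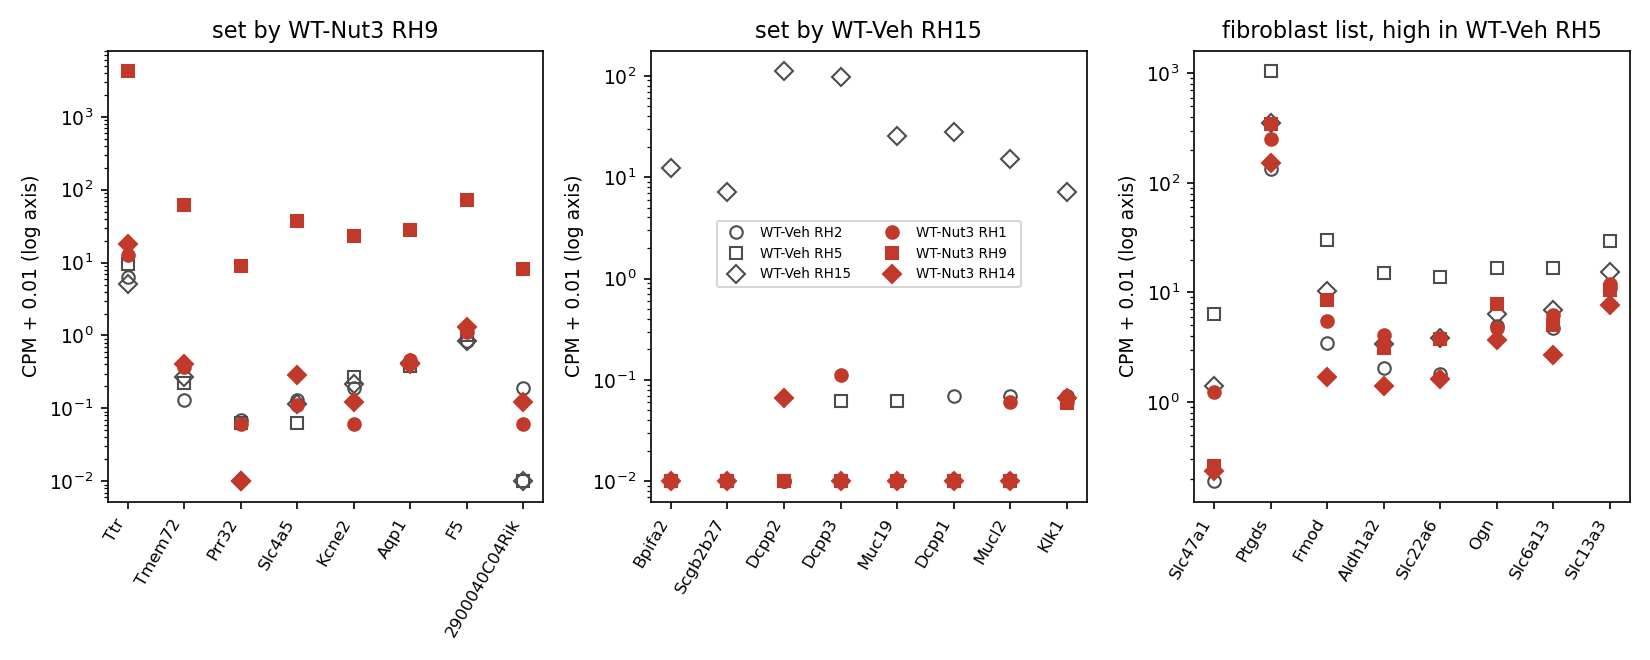
CPM (log axis, 0.01 added) in each of the 6 WT libraries for the first 8 genes set by WT-Nut3 RH9, the first 8 set by WT-Veh RH15 and 8 fibroblast list genes. The fibroblast genes were picked as high in WT-Veh RH5, so their panel does not describe the whole list. The single filled square, open diamond and open square stand far above the other 5 symbols in the first and second panels and above them in the third.

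The 8 genes with the smallest *P*-values on the higher side were of mixed kinds. *Car2*, the carbonic anhydrase of oligodendrocytes, was at 185, 180 and 191 CPM in WT-Nut3 and 146, 155 and 163 CPM in WT-Veh, which differed by 0.26 on the log2 scale (0.14 to 0.39), with the groups well apart. In the knockout its log2 fold change was 0.26. *Fgfr2*, a fibroblast growth factor receptor of glia, was at 59.6, 57.6 and 57.0 CPM against 44.1, 52.2 and 45.8 CPM (0.30, 0.14 to 0.45), and *Cd9*, a tetraspanin of myelinating cells, at 25.1, 31.7 and 26.4 CPM against 17.3, 21.4 and 21.9 CPM (0.46, 0.20 to 0.72). The knockout values were 0.35 and 0.34. *Rd3*, a regulator of guanylate cyclase, was at 0.507, 2.19 and 1.18 CPM against 0.119, 0.105 and 0.309 CPM, and the unannotated transcript *AC122117.2* at 8.17, 9.98 and 8.08 CPM against 4.66, 6.20 and 5.66 CPM. *Ak7*, *Ttr* and *Gm21887* complete the 8.

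On the lower side the genes were at low levels, apart from *Dcpp2* and *Dcpp3* at 111 and 98.2 CPM in WT-Veh RH15. *Vegfd*, a growth factor for lymphatic vessels, was at 3.50, 3.63 and 2.30 CPM in WT-Nut3 and 4.84, 5.41 and 5.46 CPM in WT-Veh (-0.73, -1.19 to -0.27). *Myl3*, a myosin light chain of slow and cardiac muscle, was at 0.152, 0.149 and 0.056 CPM against 0.717, 0.263 and 1.39 CPM, and *Tgm7*, a transglutaminase, at 0.609, 0.447 and 0.392 CPM against 1.01, 1.16 and 1.18 CPM. *4930539E08Rik* (-0.66), *Gm20735* (-0.71) and *Gm9996* (-1.67) have no function that can be stated here, and each was lower in all 3 WT-Nut3 libraries.

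Among genes with separate groups and a mean of at least 1 CPM, the largest increases beside the choroid plexus genes were those of *Drc7*, a subunit of the dynein regulatory complex of motile cilia (2.15, 0.72 to 3.57), and *Nek5*, a kinase (1.44, 0.35 to 2.54). *Drc7* was at 3.30, 22.7 and 3.81 CPM against 1.61, 2.26 and 2.83 CPM, and without RH9 its log2 fold change was 0.66. For *Nek5* the value without RH9 was 0.89. The largest decreases with separate groups were *Xlr3b* (-2.48), *Gm9962* (-1.13), *Ror2*, a receptor for WNT5A (-1.08), *Foxl2*, a forkhead factor (-0.98), *4833422M21Rik* (-0.94), *Mmp9*, a matrix metalloproteinase (-0.92), *Gm38162* (-0.86) and *Rexo5* (-0.85). All 8 had WT-Veh means of at most 2.42 CPM. *Xlr3b*, an X-linked gene with near-identical neighbours, so that its counts are uncertain, was at 0, 0 and 1.01 CPM against 2.27, 1.42 and 1.80 CPM. *Mmp9* was at 1.57, 1.29 and 0.953 CPM against 1.79, 2.57 and 2.88 CPM. Its log2 fold change in the knockout was -0.14.

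*Gm21887*, which RefSeq lists as *Erdr1*, had the smallest *P*-value of all genes and was present or absent by library. It was at 28.9 and 18.4 CPM in WT-Nut3 RH9 and RH14, at 0.0507 CPM in WT-Nut3 RH1, and at 0.0597, 0.210 and 0 CPM in WT-Veh RH2, RH5 and RH15. WT-Nut3 thus held libraries of both kinds, and the groups overlapped. In the knockout the pattern was opposite, with KO-Veh at 9.96, 11.9 and 13.8 CPM and KO-Nut3 at 0.333, 0 and 0.220 CPM. The gene lies at the distal end of the X chromosome, and its adjusted *P*-value by edgeR was 0.998 in WT and 0.126 for the interaction. Without WT-Nut3 RH1 it was the 1 gene that passed in WT, with an adjusted *P*-value of 0.000142.

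The interaction of genotype and Nutlin-3 asked, over all 12 libraries, whether the WT response differed from the knockout response. No gene passed (0% of those tested, smallest adjusted *P*-value of edgeR 0.126), and 942 (4.17%) passed the unadjusted threshold. DESeq2 called 1 gene, *Gm21887*. Among the lists, 26 of 30 fibroblast genes, 12 of 48 TGF-beta and BMP signalling genes and 6 of 20 endothelial genes had an unadjusted interaction *P*-value under 0.05. So did 7 of 28 collagen genes, 6 of 26 interferon and MHC genes, 4 of the 9 genes followed by qPCR and 3 of 9 blood genes. The threshold was met by none of the 22 p53 core regulators, 1 of the 48 p53 target genes and none of the myelin and cilia genes. Without WT-Veh RH5 the counts were 16 of 30 for the fibroblast genes, 7 of 48 for the TGF-beta and BMP signalling genes and 5 of 20 for the endothelial genes. The collagen count was 4 without WT-Veh RH5 and 13 without WT-Nut3 RH9, and the qPCR gene count 2 and 9, while the blood count lay between 1 without KO-Nut3 RH6 and 4. The count of 3 of 30 choroid plexus genes rested on RH9, the WT-Nut3 library with the high levels, and was 25 of 30 without it, 1 without WT-Veh RH5, 7 with the choroid plexus level as a term and 18 with no filter on low counts. For the p53 target genes the count lay between 0 and 4 when each library was left out in turn, with 4 without KO-Nut3 RH6 and 3 without KO-Nut3 RH13 or WT-Veh RH15. For the mural cells it was 5 of 14, and 1 of 14 when WT-Veh RH5, WT-Nut3 RH14, KO-Nut3 RH8 or KO-Veh RH10 was left out. For the immediate early genes it was 6 of 24, and went from 0 without KO-Veh RH16 to 14 without WT-Veh RH15, with 2 when WT-Veh RH2, WT-Veh RH5 or WT-Nut3 RH14 was left out, 3 without WT-Nut3 RH9 or KO-Nut3 RH13 and 11 without KO-Nut3 RH8. With robust dispersion or the choroid plexus level as a term it was 0.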

How the data were processed

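Hippocampal poly(A) RNA of 12 mice was sequenced, and per the labels and methods the authors aligned reads with STAR to mm10 and deposited raw counts per gene for each library. The unstranded column was used, because the 2 strand columns held near-equal shares. Genes with more than 20 counts over 12 libraries were tested with the quasi-likelihood test of edgeR 4.0.16 (R 4.3.3) on the 6 WT libraries with TMM factors, and the interaction on all 12, at a Benjamini-Hochberg adjusted *P*-value of 0.05. Intervals are 95% intervals of the fit. CPM carry TMM factors over 12 libraries. DESeq2 1.42.0 and limma 3.58.1 (voom), other filters, scalings and strand columns, added terms and leaving out each library were the alternatives. The code was checked on simulated data.

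The comparison and the 32 gene lists were chosen with earlier results of these data known. Genes were named by rule: genes of the treatment and model, the qPCR genes with *Ttr*, the 8 smallest *P*-values and the 8 largest non-overlapping changes in each direction, the most abundant member and the smallest *P*-value of each list, genes set by 1 library and genes called in alternatives. Genes with a p53 element were chosen by sequence. *Eda2r*, *Mcm2*, *Dcx*, *Bax*, *Bbc3*, *Apaf1*, *Olig1*, *Pdgfra*, *Foxj1*, *Prox1*, *Neurod6*, *Cdkn2a*, *Trp73*, *Trp63* and some genes of RH15 were named as examples after values were seen. Items withheld from the text are not reported here.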

Additional observations from a re-analysis of the deposited data

How the results depend on the processing

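No paired analysis was possible because each library has its own number and the labels give no litter or other pairing of the mice. The count of genes that passed in WT was 0 with the following exceptions. It was 249 without a filter on low counts, where the fit estimated no gene-to-gene spread in dispersion. With library number up to RH8 against from RH9 as a term it was 11, each highest in WT-Veh RH15, *Dcpp2* first. Across fits without 1 library it was 0 to 1, the 1 being *Gm21887* without WT-Nut3 RH1. At the unadjusted threshold the counts were 340 with DESeq2, 470 with the filterByExpr filter, 1336 without a filter and 591 to 1158 without 1 library, the highest without WT-Nut3 RH1. The interaction gave 291 genes without a filter, 1 with DESeq2, 1 with either strand column, 1 with the choroid plexus level as a term and 0 to 1 without 1 library. With robust dispersion 1 of 20 myelin, 6 of 24 cilia and 0 of 30 choroid plexus genes were at the unadjusted threshold.

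Of the log2 fold changes compared over alternatives, 1265 kept direction and side of the threshold, 26 passed it, and 64 changed sign. With the choroid plexus level as a term they became -0.0245 for *Usp7*, -0.55 for *Angptl2*, -0.0990 for *Aqp1*, -0.59 for *Bmp6*, -1.08 for *Col8a1*, -1.29 for *Igf2*, 0.0456 for *Hdac5*, 0.00731 for *Cspg5*, 0.0655 for *Bbc3* and 0.0187 for *Apaf1*. On strand column 4 they were -0.0491 for *Trp53*, -0.0240 for *Usp7*, 0.14 for *Cdkn1a*, -0.29 for *Gtse1*, -0.00394 for *Plk2*, 0.0698 for *Bbc3* and 0.0030 for *Apaf1*, and on strand column 3 -0.00718 for *Ep300*, 0.00394 for *Kat8* and 0.0859 for *Bax*. Library number as a term gave -0.00676 for *Usp7*, 0.0288 for *Cspg5*, 0.0163 for *Bax* and 0.0882 for *Bbc3*. With limma-voom *Cdkn1a* was 0.0477, and *Usp7* was -0.000883 without a filter and -0.00222 with all 12 libraries in the fit. Without 1 library the ranges were -0.0247 to 0.0294 for *Usp7*, -0.0113 to 0.0726 for *Ep300*, -0.20 to 0.44 for *Cdkn1a*, -0.43 to 1.71 for *Angptl2*, -0.50 to 0.80 for *Bmp6*, -0.91 to 3.16 for *Col8a1*, -1.14 to 1.65 for *Igf2*, -0.28 to 0.0469 for *Timp3*, -0.0680 to 0.0627 for *Neurod2*, -0.0995 to 0.0363 for *Hdac5*, -1.48 to 0.0369 for *Ptgds*, -0.24 to 0.0147 for *Cspg5*, -0.0947 to 0.47 for *Arc*, -0.0757 to 0.0509 for *Bax*, -0.21 to 0.0978 for *Bbc3*, -0.12 to 0.0790 for *Apaf1* and -0.0601 to 0.15 for *Olig1*. Other than where a left-out library or fewer genes make the difference by construction, the cause was not tested.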
